A study of Homo sapiens with 6 samples.

Results

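The genes described here are 10 members of the SOX family of transcription factors, taken from the count table by symbol: SOX3, SOX4, SOX8, SOX9, SOX11, SOX12, SOX13, SOX15, SOX17 and SOX21. They were 10 of 53715 genes in the count table, and 9 of the 10 had enough counts to be tested. RNA came from primed H9 cells, an established line of human embryonic stem cells, and was read by poly(A) RNA sequencing with a directional kit. The 3 groups, of 2 libraries each, were an antisense oligo against LINE1 (ASO-L1), a sense oligo of LINE1 (sO-L1) and a non-targeting antisense oligo (ASO-Ctr). LINE1 elements are retrotransposons, found in very many copies across human DNA. Every oligo was used at 25 nM and carried a fluorescein tag, by which cells were sorted 48 hours after transfection. All groups alike received 3 small molecules: trans-ISRIB at 0.7 uM, which blunts the integrated stress response, emricasan at 5 uM, which inhibits caspases, and the ROCK inhibitor Y-27632 at 10 uM. These were taken away after 24 hours. The medium after transfection is mTeSR in 1 place of the labels and RSeT elsewhere, which leaves it unsettled. Nothing in the labels says that the replicates were separate cultures, so p-values measure spread between libraries, which may be technical. For each gene that spread is moderated toward the trend over all genes.

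SOX factors bind DNA through the HMG box, a domain that fits into the minor groove and bends the helix, and most act together with a partner factor bound beside them. The family is divided into groups by the sequence of this domain. SOX3 and SOX21 belong to group B with SOX2, SOX4, SOX11 and SOX12 form group C, SOX13 is in group D, SOX8 and SOX9 are in group E, SOX17 is in group F, and SOX15 stands in group G. In embryonic stem cells SOX2 holds the pluripotent state together with POU5F1, while most other members are known for later lineages such as neural tissue, neural crest, cartilage and endoderm.

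The stretch of coding sequence that the members have most in common is shown because it lies in the HMG box that defines the family and because it bears on whether reads can be told apart. SOX17 is left out of it. It is the 30-base window of SOX21 that best matched the other genes in frame, read from the GENCODE v29 transcripts, 5′ to 3′. Capitals mark bases that are the same as in SOX21.
SOX21: AAGCGGCCCATGAACGCCTTCATGGTGTGG
SOX3: AAaCGGCCCATGAACGCCTTCATGGTaTGG
SOX4: AAGCGaCCCATGAACGCCTTCATGGTGTGG
SOX11: AAGCGGCCgATGAACGCgTTCATGGTaTGG
SOX12: AAGaGGCCgATGAACGCaTTCATGGTGTGG
SOX9: AAGCGGCCCATGAACGCCTTCATGGTGTGG
SOX8: AAGCGGCCCATGAACGCaTTCATGGTGTGG
SOX13: AAGaGGCCCATGAACGCCTTCATGGTGTGG
SOX15: AAGCGGCCgATGAACGCgTTCATGGTGTGG
SOX9 had all 30 bases in common with SOX21 and the other 7 genes had 27 to 29. Of all 50-base words in the transcripts of each member, none was shared between members. For 7 members no word was shared with any gene at all. For SOX21 it was 11 of 2729 words, all with SOX2, for SOX11 25 of 8670 and for SOX13 63 of 7520.

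The libraries held 18897936 to 67192937 counts, and the shallowest was ASO-Ctr replicate 1. Stem cell markers were abundant: the summed level of 12 in CPM, the usual scaling of counts to the library total, was 10837 to 10938 in ASO-L1, 11217 to 11323 in sO-L1 and 11032 to 11323 in ASO-Ctr. Of these 12, 2 rose and 4 fell in ASO-L1 against sO-L1 at an adjusted p under 0.05 (edgeR with a replicate block). There 10.3% of all genes rose and 12.7% fell, and none of the 12 passed without the block. Against ASO-Ctr, SOX2 rose and DNMT3B and NANOG fell, also only with the block, where 9.88% of all genes rose and 11.6% fell. SALL4, L1TD1 and ZFP42, called against sO-L1, were not called there. L1TD1 was called higher in sO-L1 against ASO-Ctr (edgeR adjusted p = 0.0308), though not without the block. Together 8 trophoblast markers reached 11.8 to 12.4, 11.5 to 12.4 and 11.01 to 12.1 CPM in the same 3 groups. KRT7 alone had 9.52 to 11.05 CPM. Of the 3 that could be tested, TFAP2C was called higher against sO-L1 (0.69, edgeR adjusted p = 0.036, or 0.439 without the block). KRT7 (-0.08) and ERVW-1 (0.35) were not called. TFAP2C was not called in ASO-L1 against ASO-Ctr (edgeR adjusted p = 0.104). The 6 neuronal markers reached 116 to 129, 119 to 137 and 130 to 147 CPM. They moved both ways in ASO-L1 against sO-L1: STMN2 (0.63) and GAP43 (0.29) were called higher, SYT1 (-0.31) lower and 3 were not called. None of them passed without the block. The 8 fibroblast markers reached 174 to 186, 146 to 177 and 151 to 174 CPM, and DCN, FAP and LUM had 1, 1 and 8 counts over all libraries. Of the 5 that could be tested, COL1A1 was called higher in ASO-L1 against sO-L1 (log2 fold change 0.63). COL1A2 -0.09, COL3A1 -0.08, PDGFRB -0.15 and POSTN 0.21 were not called, and the median was -0.08. The COL1A1 call also held without the block (edgeR adjusted p = 0.029). Against ASO-Ctr COL1A1 was called higher too (0.61, edgeR adjusted p = 1.22e-08, or 0.032 without the block). The part of such cells in the results was not tested. In bulk RNA, fewer cells of a type and less RNA per cell cannot be told apart.

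The members covered a wide range of levels. Per kilobase of exon (GENCODE v29), SOX4 stood highest at 56.5 to 61.6 CPM per kilobase over the 6 libraries, followed by SOX12 at 30.5 to 33.3. SOX13 (16.8 to 19.3) and SOX11 (16.0 to 18.9) came next and overlapped. SOX21 ranged widely, from 1.49 to 9.26 CPM per kilobase, across the narrower bands of SOX9 (3.36 to 4.19), SOX3 (2.85 to 3.25), SOX8 (1.67 to 2.12) and SOX15 (1.41 to 2.44). SOX17 was at the limit of detection. Because exon lengths come from an annotation of another build than the counts, this order is approximate.

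**Figure D1:**
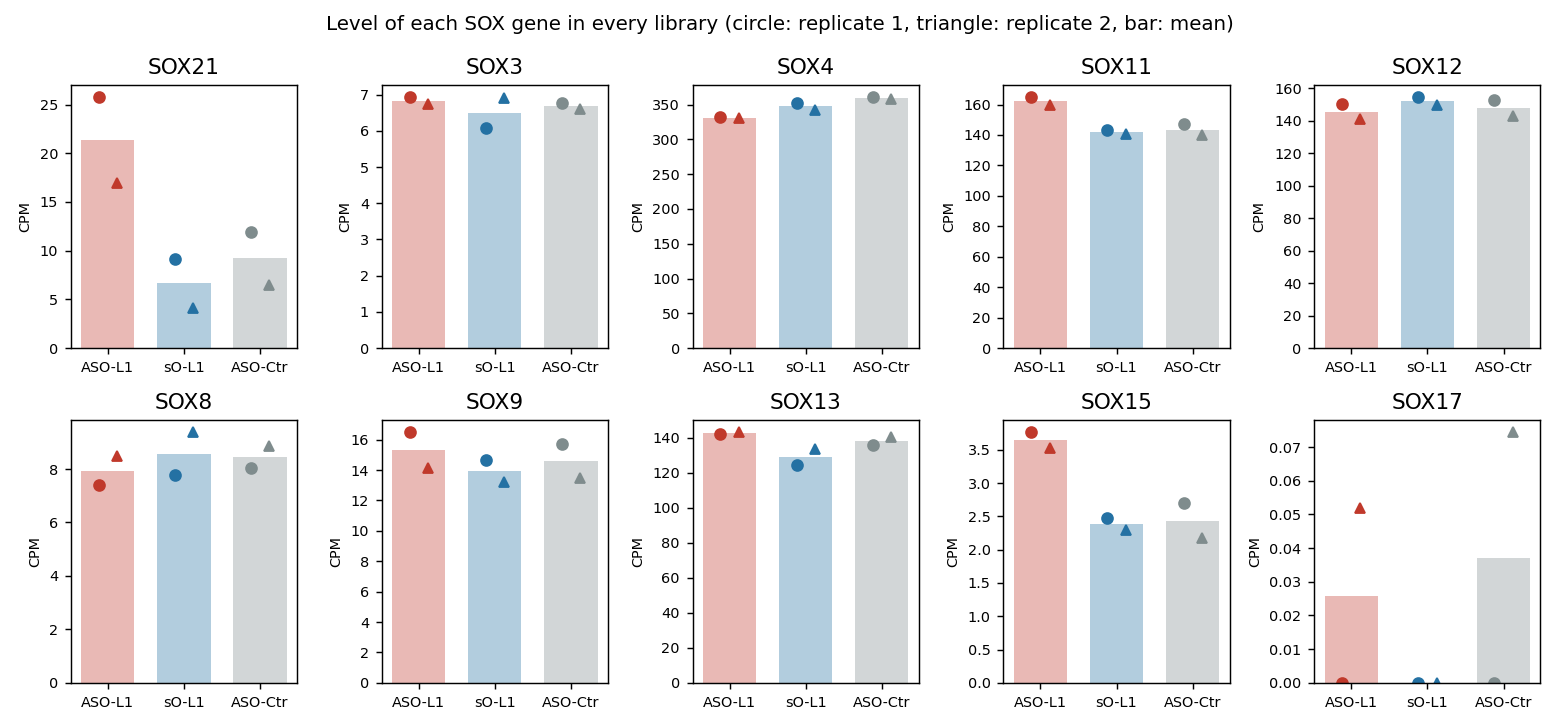
CPM of each of the 10 SOX genes (y axis, linear, own scale per gene) in ASO-L1, sO-L1 and ASO-Ctr; circles are replicate 1, triangles replicate 2 and bars the mean of both. SOX21 was at 17.0 CPM or more in ASO-L1 and at 11.96 or less elsewhere, SOX15 shows the next clearest step, and the groups of the other tested genes lie closer together.

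In cells given ASO-L1, 4 of the 9 tested members rose against sO-L1: SOX21 by 3.38-fold, SOX15 by 1.53-fold, SOX11 by 1.15-fold and SOX13 by 1.11-fold. None fell, and SOX3, SOX4, SOX8, SOX9 and SOX12 did not pass the test. A call means a Benjamini-Hochberg adjusted p under 0.05 over all 19156 genes tested, by quasi-likelihood in edgeR, with replicate number blocked. Of all genes tested, 23.0% were called in this comparison, 10.3% higher and 12.7% lower. The members' median log2 fold change was 0.13, beside -0.00051 over all genes. Without the replicate block no member passed, although 4 had an unadjusted p under 0.05, and 1.84% of all genes were called, 0.914% higher and 0.924% lower. By DESeq2 3 members were called and by limma-voom 4. Below, each edgeR p-value given with a call comes from the fit with the block unless stated otherwise. The block removes from the error the shift between replicate numbers that the groups share.

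SOX21 is a group B factor known mainly as a repressor, and in the chick neural tube it works against the activating group B members and favours neuronal differentiation. It stood at 25.7 and 17.0 CPM in ASO-L1, 9.14 and 4.15 in sO-L1 and, in ASO-Ctr, 11.96 and 6.52 (replicates 1 and 2). Both ASO-L1 libraries lay above the other 4, and in every group replicate 1 was above replicate 2, by 1.51, 2.21 and 1.84 times in ASO-L1, sO-L1 and ASO-Ctr. The block removes the part of this shift that the groups share, and the part that differs between groups stays in the error. The means were 21.4 ± 6.17 CPM in ASO-L1, 6.65 ± 3.53 in sO-L1 and 9.24 ± 3.85 in ASO-Ctr (SD, n = 2 each). Against sO-L1 the log2 fold change was 1.76 ± 0.10 (SE; edgeR adjusted p = 1.84e-19, or 0.0596 without the block), and the CPM ratio was 2.81 in replicate 1 and 4.10 in replicate 2. Against ASO-Ctr it was 1.27 ± 0.10 (edgeR adjusted p = 1.38e-14, or 0.127 without the block), with ratios of 2.15 and 2.61. The ratio was above 1 in both replicate numbers each time, and the 2 comparisons share the ASO-L1 libraries. The SE uses a spread moderated over all genes, while the log2 CPM ratios against sO-L1 were 1.49 and 2.03. In the authors' deposited table the log2 fold change of SOX21 against sO-L1 was 1.76, with an adjusted p of 1.77e-14.

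SOX21 was also the 1 member that differed between the 2 control oligos. It fell in sO-L1 against ASO-Ctr by 0.49 ± 0.11 on the log2 scale (edgeR adjusted p = 0.0137, or 1 without the block), with CPM ratios of 0.765 in replicate 1 and 0.636 in replicate 2. The libraries of sO-L1 and ASO-Ctr overlapped in CPM, since replicate 1 of sO-L1 at 9.14 was above replicate 2 of ASO-Ctr at 6.52. The call was lost when either sO-L1 library was left out (adjusted p = 0.0548 without replicate 1 and 0.506 without replicate 2), without ASO-Ctr replicate 1 (0.0974), and when all libraries were thinned to the shallowest (0.166). DESeq2 gave no adjusted p for it (unadjusted p = 0.00186).

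SOX21 is a gene of 1 exon on chromosome 13, and the long non-coding RNA gene SOX21-AS1 starts beside it on the opposite strand and runs the other way. In RefSeq (GRCh38.p14) the 2 starts lie 171 bases apart and in GENCODE v29 their exons do not overlap. Whether strand was used in counting is not given in the sources used here, so reads shared by the 2 genes under another annotation cannot be told apart. The 250 bases before the SOX21 start hold the start of SOX21-AS1, and are shown because both genes rose. The window is chr13:94712546-94712795, minus strand, and SOX21-AS1 starts at base 80 of it and is read to the left.
SOX21: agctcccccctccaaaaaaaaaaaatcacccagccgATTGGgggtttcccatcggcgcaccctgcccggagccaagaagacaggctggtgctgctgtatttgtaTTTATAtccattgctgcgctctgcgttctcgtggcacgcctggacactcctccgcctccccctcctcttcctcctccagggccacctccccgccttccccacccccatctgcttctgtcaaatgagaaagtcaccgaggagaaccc
Capitals mark the 2 matches found among 5 motifs searched on both strands: a CCAAT box (CCAAT, written as ATTGG on this strand) and a TATA box (TATAAA, written as TTTATA on this strand). The TATA match begins 30 bases before the SOX21-AS1 start on the strand of that gene. CCAAT was found in 32.0% of 35116 RefSeq windows of this length and TATAAA in 10.7%. The SOX core ACAAT (24.6% of windows), the C/EBP-ATF element TGATGNAAT (0.889%) and the AP-1 element TGACTCA (4.20%) had no match here. The window of SOX3, the other group B member, is given for comparison (chrX:140505070-140505319, minus strand).
SOX3: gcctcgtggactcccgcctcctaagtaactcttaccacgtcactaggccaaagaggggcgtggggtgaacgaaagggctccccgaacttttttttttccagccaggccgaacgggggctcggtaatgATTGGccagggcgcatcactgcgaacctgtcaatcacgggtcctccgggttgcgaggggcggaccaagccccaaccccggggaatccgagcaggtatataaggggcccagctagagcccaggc
It held 1 CCAAT match, in capitals, and no exact match of the other 4 motifs. Variants of the TATA box were not searched, and near its right end this window holds the similar stretch tatataag. RefSeq windows were at hand for 5 of the members. SOX4 had 4 CCAAT matches and SOX12 had 1, SOX13 had none of the 5 motifs, and TATAAA and ACAAT were in none of these 3. A match is only a match of letters.

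SOX21-AS1 stood at 6.75 and 4.53 CPM in ASO-L1, 2.86 and 1.84 in sO-L1 and, in ASO-Ctr, 2.17 and 2.35. As for SOX21, both ASO-L1 libraries were above the other 4. It rose by 1.28 ± 0.15 on the log2 scale against sO-L1 (edgeR adjusted p = 3.64e-09, or 0.0437 without the block) and by 1.20 ± 0.16 against ASO-Ctr (edgeR adjusted p = 4.65e-08, or 0.0439 without the block). Without the block SOX21-AS1 thus lay just under 0.05, and SOX21 lay over it (edgeR adjusted p = 0.0596 against sO-L1 and 0.127 against ASO-Ctr). SOX21-AS1 was not run under the further alternatives used for the members. Between sO-L1 and ASO-Ctr its log2 fold change was -0.09 ± 0.18 (edgeR adjusted p = 0.902), and its CPM ratio was 1.32 in replicate 1 and 0.781 in replicate 2.

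**Figure D2:**
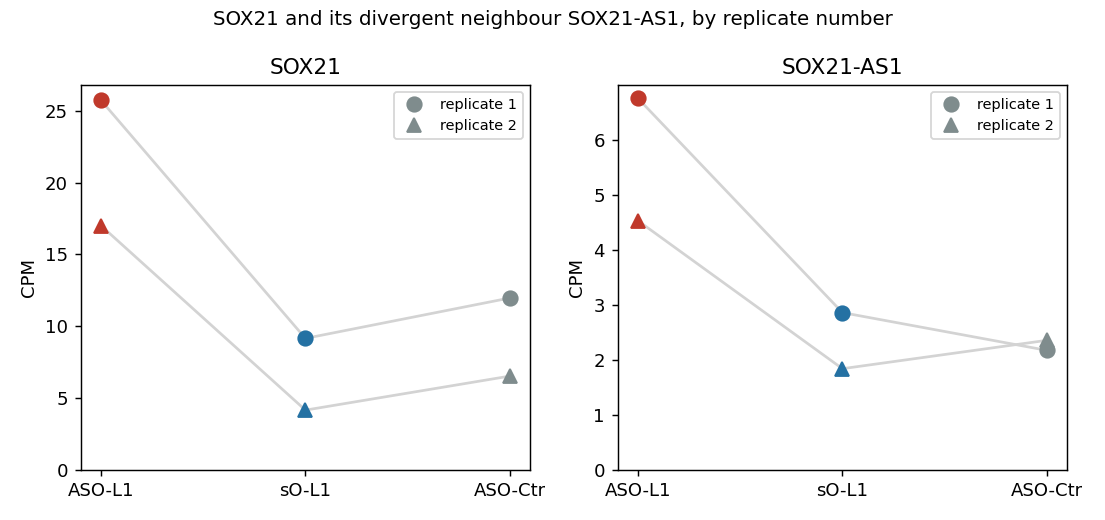
CPM (y axis, linear from 0) of SOX21 and SOX21-AS1 in ASO-L1, sO-L1 and ASO-Ctr; circles are replicate 1, triangles replicate 2, and grey lines join libraries of the same replicate number. Both genes are highest in ASO-L1 in each replicate number, and SOX21 is higher in replicate 1 than in replicate 2 in every group.

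The genes whose levels followed SOX21 most closely were named by the Pearson correlation of log2(CPM + 1) over the 6 libraries, among tested genes with a mean of at least 1 on that scale. They were ZBTB2 (r = 0.999), the death receptor FAS (0.995), the ephrin receptor EPHA4 (0.994), PHLDA1 (0.993) and LGR4, a receptor for R-spondins (0.992). With 6 libraries that share depth and replicate shifts these values describe likeness and carry no p. Since they were chosen, out of 14189 candidates, for following SOX21 over these libraries, their higher level in ASO-L1 comes with the choice and is given as a description. Their log2 fold changes against sO-L1 were 0.30 for ZBTB2, 0.51 for FAS, 0.73 for EPHA4, 0.49 for PHLDA1 and 0.16 for LGR4, all well under that of SOX21.

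SOX3, the X-linked member of group B that maintains neural progenitors, did not pass the test. It had 6.92 and 6.74 CPM in ASO-L1, 6.09 and 6.90 in sO-L1 and, in ASO-Ctr, 6.77 and 6.59, so the groups overlapped. Its log2 fold change against sO-L1 was 0.07 ± 0.11 (edgeR adjusted p = 0.721), and 2 SE either side reached from -0.15 to 0.28.

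Within group C, SOX11 rose and its relatives SOX4 and SOX12 did not pass the test. SOX11 promotes neuronal differentiation. It had 165 and 160 CPM in ASO-L1, 143 and 140 in sO-L1 and, in ASO-Ctr, 147 and 140, and both ASO-L1 libraries lay above the other 4. The log2 fold change was 0.20 ± 0.05 against sO-L1 (edgeR adjusted p = 0.00121, or 0.213 without the block) and 0.20 ± 0.05 against ASO-Ctr (edgeR adjusted p = 0.00126, or 0.205 without the block). The call against ASO-Ctr was lost without ASO-Ctr replicate 2 (adjusted p = 0.054). SOX11 levels were 1.15 times those of sO-L1 in replicate 1 and 1.14 times in replicate 2. In GENCODE v29, 74 of its exon bases (0.849%) overlap AC108025.2 on the same strand. That gene also holds the 25 words of 50 bases that SOX11 shares.

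SOX4, the most abundant member per length and a factor active in many progenitors, went the other way in CPM without passing the test. It had 332 and 331 CPM in ASO-L1, 352 and 343 in sO-L1 and, in ASO-Ctr, 360 and 358. The ASO-L1 libraries were the lowest of the 6 and those of ASO-Ctr the highest, with no overlap between any of the groups. In GENCODE v29, 2.87% of its exon bases overlap AL512380.2 on the opposite strand. The log2 fold changes were small, -0.06 ± 0.05 against sO-L1 (edgeR adjusted p = 0.366) and -0.09 ± 0.05 against ASO-Ctr (edgeR adjusted p = 0.15). With 2 libraries per group, separation of 2 groups is common: 24.1% of genes lay wholly below sO-L1 in ASO-L1 and 22.4% wholly above. The share of genes ordered over all 3 groups, or with both ASO-L1 libraries above the other 4, was not counted. SOX4 was the 1 member wholly below and SOX11, SOX13, SOX15 and SOX21 were the 4 wholly above. SOX12, a weaker activator than its relatives in transfection assays, had 150 and 141 CPM in ASO-L1, 154 and 150 in sO-L1 and, in ASO-Ctr, 153 and 143, with overlap. The SOX12 log2 fold change was -0.06 ± 0.05 against sO-L1 (edgeR adjusted p = 0.43) and 0.00 ± 0.05 against ASO-Ctr (edgeR adjusted p = 0.985), where 2 SE reached from -0.09 to 0.10.

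The group E members SOX8 and SOX9, known for neural crest, glia, testis and, for SOX9, cartilage, were not called. SOX9 had 16.5 and 14.1 CPM in ASO-L1, 14.7 and 13.2 in sO-L1 and, in ASO-Ctr, 15.7 and 13.5. Replicate 1 was above replicate 2 in all 3 groups, and the groups overlapped. Its log2 fold change against sO-L1 was 0.13 ± 0.08 (edgeR adjusted p = 0.244). SOX8 had 7.40 and 8.48 CPM in ASO-L1, 7.76 and 9.38 in sO-L1 and, in ASO-Ctr, 8.04 and 8.86, with replicate 2 higher each time. Its log2 fold change against sO-L1 was -0.11 ± 0.10 (edgeR adjusted p = 0.493). For both genes the shift between replicate numbers was of the size of the difference between groups or larger.

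SOX13, a group D factor known as an autoantigen and for its role in T cell lineages in mice, had 142 and 143 CPM in ASO-L1, 124 and 134 in sO-L1 and, in ASO-Ctr, 136 and 141. It rose against sO-L1 by 0.15 ± 0.05 (log2; edgeR adjusted p = 0.0166, or 0.297 without the block). The ASO-L1 and ASO-Ctr libraries nearly touched, at 142 and 141 CPM, and against ASO-Ctr the log2 fold change was 0.07 ± 0.05 (edgeR adjusted p = 0.353). The call was lost without either sO-L1 library (adjusted p = 0.26 without replicate 1 and 0.0565 without replicate 2) and without ASO-L1 replicate 1 (0.231).

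SOX15, the sole member of group G, has been linked to muscle progenitors in mice. It was scarce, with 801 counts over all libraries, yet its libraries separated. It had 3.76 and 3.52 CPM in ASO-L1, 2.48 and 2.30 in sO-L1 and, in ASO-Ctr, 2.70 and 2.17. Both ASO-L1 values lay above the other 4. The log2 fold change was 0.61 ± 0.15 against sO-L1 (edgeR adjusted p = 0.00207, or 0.124 without the block), with CPM ratios of 1.52 in replicate 1 and 1.54 in replicate 2. It was 0.64 ± 0.16 against ASO-Ctr (edgeR adjusted p = 0.00218, or 0.122 without the block). DESeq2 did not call it (adjusted p = 0.0743 against sO-L1 and 0.0772 against ASO-Ctr). Against sO-L1 the call was also lost without ASO-L1 replicate 2 (adjusted p = 0.0645), sO-L1 replicate 1 (0.0669) or sO-L1 replicate 2 (0.0645). Against ASO-Ctr it was lost without ASO-L1 replicate 2 (0.0786) or ASO-Ctr replicate 2 (0.169) and after thinning (0.0838). Of its exon bases in GENCODE v29, 15 overlap MPDU1 on the opposite strand, 0.973% of its length.

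SOX17, the group F factor that specifies definitive endoderm and human germ cells, was close to absent from the counts. It had 0 and 3 counts in ASO-L1, 0 and 0 in sO-L1 and, in ASO-Ctr, 0 and 5. The limit set by 0 counts is 0.0649 CPM in ASO-L1 replicate 1, 0.0865 and 0.0492 in sO-L1, and 0.159 in ASO-Ctr replicate 1 (3 counts, counting error only). No difference was detectable at this depth and SOX17 was left out of the tests.

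**Figure D3:**
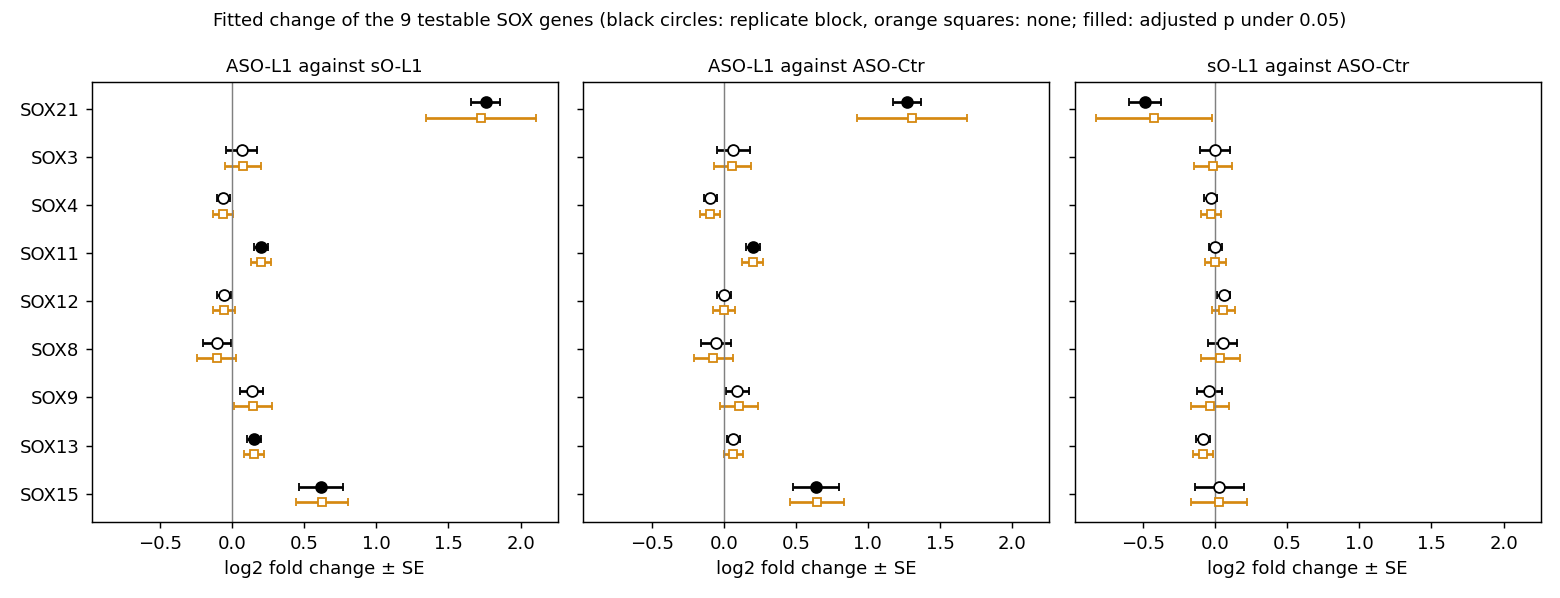
Log2 fold change ± SE (x axis) of the 9 tested SOX genes (rows) in the 3 comparisons; black circles are the fit with the replicate block, orange squares the fit without it, and filled symbols have an adjusted p under 0.05. SOX21, SOX15, SOX11 and SOX13 are filled in the left panel with the block, no square is filled, and the 2 fits give nearly the same changes with different error bars.

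Against ASO-Ctr, 3 of the 9 tested members rose in ASO-L1, namely SOX21, SOX11 and SOX15, and none fell, where 21.5% of all genes were called, 9.88% higher and 11.6% lower. Without the block no member passed, 3 had an unadjusted p under 0.05, and 1.95% of genes were called, 0.903% higher and 1.05% lower. In CPM the same 4 members as against sO-L1 lay wholly above ASO-Ctr and SOX4 wholly below, as did 20.9% and 27.6% of all genes. DESeq2 called 2 members and limma-voom 3. Between the control oligos, sO-L1 against ASO-Ctr, SOX21 was the 1 member called, where 1.72% of genes were called, 1.06% lower and 0.658% higher. Without the block no gene of the whole table was called there, 569 had an unadjusted p under 0.05, and no member did. By DESeq2 no member was called, and by limma-voom 1. SOX4 and SOX13 lay wholly below ASO-Ctr in CPM, as did 16.8% of genes, and no member lay wholly above (12.8% of genes). Apart from SOX21, the members' log2 fold changes between the control oligos lay between -0.08 (SOX13) and 0.06 (SOX12).

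In the authors' deposited table of ASO-L1 against sO-L1, 23.2% of 16753 genes had an adjusted p under 0.05. SOX21, SOX11 (log2 fold change 0.21, adjusted p = 0.000704), SOX15 (0.62, adjusted p = 0.00728) and SOX13 (0.16, adjusted p = 0.0103) were among them in the authors' deposited table. The other 5 members listed there had adjusted p-values from 0.227 (SOX9) to 0.727 (SOX3) in the authors' deposited table. These are the same 4 members as called from the counts, from the same libraries. In the authors' deposited log2 values, after their batch correction, SOX21 stood at 4.29 and 4.55 in ASO-L1, 2.77 and 2.48 in sO-L1 and, in ASO-Ctr, 3.14 and 3.12. There replicate 1 no longer stood above replicate 2 in ASO-L1, and sO-L1 lay below ASO-Ctr in both.

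Of the 9 other SOX genes, 6 could be tested and 1 rose. SOX2, the pluripotency factor of group B, had 502 and 471 CPM in ASO-L1, 447 and 402 in sO-L1 and, in ASO-Ctr, 410 and 425, with both ASO-L1 libraries above the other 4. Its log2 fold change was 0.20 ± 0.05 against sO-L1 (edgeR adjusted p = 0.00117, or 0.268 without the block), the same size as that of SOX11. SOX1 -0.32 ± 0.22, SOX5 -0.19 ± 0.20, SOX6 0.29 ± 0.22, SOX7 -0.37 ± 0.19 and SOX10 0.17 ± 0.20 were not called against sO-L1 (log2; edgeR adjusted p = 0.167 to 0.604), and all had under 3 CPM in every library. SOX14, SOX18 and SOX30 had 5, 18 and 12 counts over all libraries. The median log2 fold change of the 6 was -0.01. The other long non-coding RNAs at SOX loci were not called against sO-L1. SOX2-OT, which spans SOX2, changed by 0.14 ± 0.11 (log2; edgeR adjusted p = 0.395), and CASC15 near SOX4, counted under its older symbol LINC00340, by -0.18 ± 0.27 (edgeR adjusted p = 0.688).

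Genes of the lineages in which SOX factors act were counted in ASO-L1 against sO-L1 by lists, where 10.3% of all genes were called higher and 12.7% lower. Of 16 tested early neural genes, 6 rose and 1 fell, with a median log2 fold change of 0.08. Among those that rose were the homeobox factor OTX2 0.49 ± 0.05 and the zinc finger factor ZIC2 0.25 ± 0.05 (edgeR adjusted p = 3.42e-11 and 5.3e-05, or 0.154 and 0.11 without the block), and the 1 that fell was the fatty acid binding protein gene FABP7 -0.30 ± 0.09 (edgeR adjusted p = 0.011, or 0.77 without the block). Of 12 neural crest genes, TFAP2A, TFAP2B, TWIST1 and MSX1 had too few counts to be tested (21, 13, 24 and 36 over all libraries). Of the 8 tested, 2 rose and 1 fell, with a median of 0.51. These were the neurotrophin receptor NGFR 0.62 ± 0.08, the Snail factor SNAI2 0.83 ± 0.16 and, downward, the forkhead factor FOXD3 -0.23 ± 0.06 (edgeR adjusted p = 3.67e-08, 9.06e-05 and 0.00804, or 0.0205, 0.0859 and 0.262 without the block). NGFR had 20.8 and 18.8 CPM in ASO-L1, against 12.5 and 13.2 in sO-L1. The median of 0.51 includes PAX7 1.30 ± 0.60, PAX3 0.89 ± 0.49, ZIC1 0.41 ± 0.41 and MSX2 0.07 ± 0.48. These were not called and had under 1 CPM in every library. ETS1, at -0.10 ± 0.06, was not called either. Against ASO-Ctr, ETS1 was called lower in ASO-L1 (-0.36 ± 0.06) and in sO-L1 (-0.27 ± 0.06), though not without the block.

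Of 12 endoderm genes, FOXA1, GATA4, GATA6 and GSC had too few counts to be tested (4, 9, 9 and 7 over all libraries). The 8 tested moved both ways: 2 rose and 1 fell, with a median of 0.05. PRDM1, a repressor used in endoderm and germ cells, rose by 1.002 ± 0.13 and EOMES, a T-box factor, by 1.13 ± 0.41, and the forkhead factor FOXA2 fell by 1.13 ± 0.16 on the log2 scale (edgeR adjusted p = 7.61e-08, 0.0406 and 2.99e-07, or 0.04, 0.362 and 0.0213 without the block). FOXA2 had 1.93 and 1.61 CPM in ASO-L1, against 3.75 and 3.89 in sO-L1. EOMES was scarce, at 0.822 and 0.639 CPM in ASO-L1, 0.260 and 0.393 in sO-L1 and, in ASO-Ctr, 0 and 0.372. Of 9 tested cartilage matrix genes known as SOX9 targets, 1 rose and 2 fell, with a median of -0.06. They were the collagen genes COL9A3 0.19 ± 0.06, COL9A2 -0.41 ± 0.13 and COL2A1 -0.19 ± 0.07 (edgeR adjusted p = 0.0198, 0.021 and 0.0481, or 0.336, 0.244 and 0.895 without the block). Of 8 tested mesoderm genes 1 rose, the VEGF receptor KDR 0.22 ± 0.05 (edgeR adjusted p = 0.000649, or 0.182 without the block), with a list median of -0.04. KDR was at -0.03 ± 0.05 in ASO-L1 against ASO-Ctr (edgeR adjusted p = 0.735), and it fell in sO-L1 against ASO-Ctr by 0.24 ± 0.05 on the log2 scale (edgeR adjusted p = 0.00309, or 1 without the block). Of 8 partner genes (POU and PAX factors and CTNNB1) 1 rose, with a median of 0.02. It was the octamer factor POU2F1 0.23 ± 0.05 (edgeR adjusted p = 0.000956, or 0.34 without the block). POU2F1 was at 0.01 ± 0.05 in ASO-L1 against ASO-Ctr (edgeR adjusted p = 0.949), and it fell in sO-L1 against ASO-Ctr by 0.22 ± 0.05 on the log2 scale (edgeR adjusted p = 0.0193, or 1 without the block). Some other genes named from these lists with a call against sO-L1 were not called in ASO-L1 against ASO-Ctr either. They were FOXD3 -0.13 ± 0.07, COL9A2 -0.34 ± 0.14 and COL2A1 0.01 ± 0.08 (edgeR adjusted p = 0.169, 0.0767 and 0.944). Set against 10.3% and 12.7% of all genes, counts of 1 to 2 in lists of 8 or 9 are near the background.

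**Figure D4:**
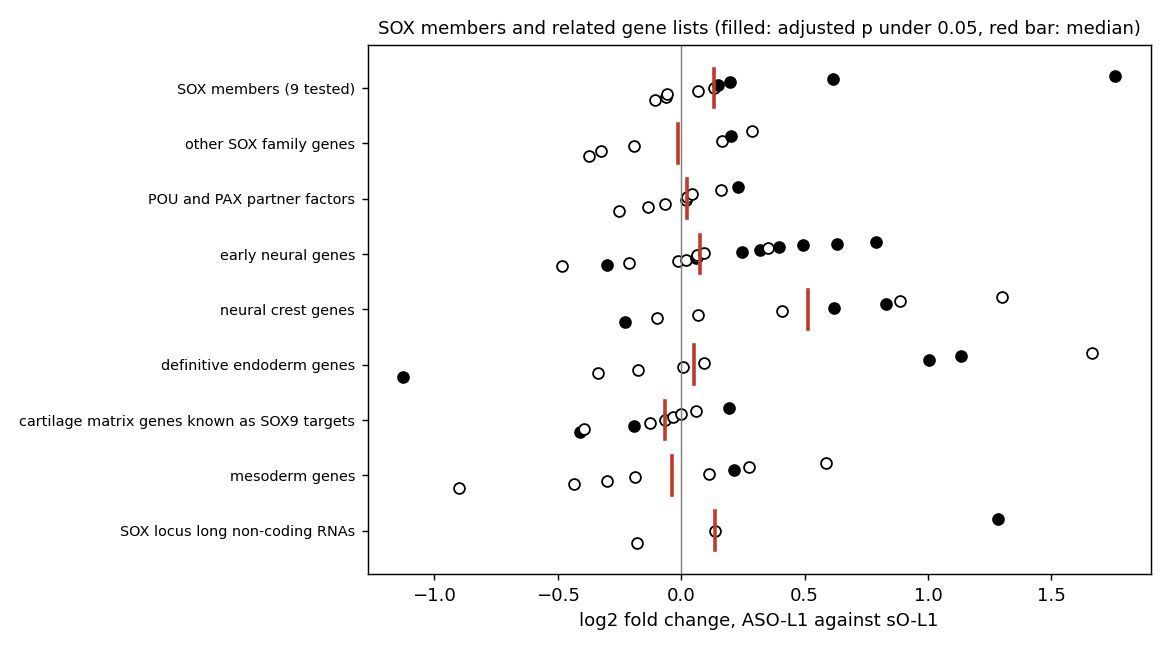
Log2 fold change in ASO-L1 against sO-L1 (x axis) of every tested gene in the SOX members and in 8 related lists (rows); filled points have an adjusted p under 0.05 and red bars are list medians. SOX21 lies farthest right of all points, at 1.76, and the medians run from -0.06 for cartilage matrix genes to 0.51 for neural crest genes. In the neural crest list PAX7, PAX3, ZIC1 and MSX2 are scarce and not called.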

How the data were processed

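RNA was sequenced in 6 libraries. The submitters' processing notes name Trim Galore 0.4.0, TopHat2 2.0.13, hg19 and featureCounts in Subread 1.5.0. The authors' deposited table gives raw counts per gene symbol, and its name points to removal of duplicates. How strand was handled is not given in the sources used here. The authors' deposited log2 values are normalized and batch corrected. Their deposited comparison of ASO-L1 with sO-L1 holds log2 fold changes, p-values and adjusted p-values, and the deposited t and B statistics, each a score, were not used. Its sign was settled against the log2 table (correlation 0.996).

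Leaving out 92 spike-ins of 53807 entries, filterByExpr (minimum count 10, minimum total 15) kept 19156 genes. With TMM scaling (0.983 to 1.02), edgeR 4.0.16 under R 4.3.3 ran a robust quasi-likelihood fit of all 6 libraries on group plus replicate number, with 2 residual degrees of freedom. The median prior degrees of freedom were 44.8, so for most genes the spread was drawn largely from the trend over all genes. SE was taken as |log2 fold change| / sqrt(F). Replicate number was included since a batch-corrected table is listed in the labels. Nothing states that it marks a batch, so pairing is not established. Replicate differences correlated between groups at 0.353 to 0.462.

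Alternatives were DESeq2 1.42.0, limma-voom (3.58.1), DESeq2 size factors, no filter, CPM above 0.5 in 2 libraries, no replicate block, the 4 libraries compared, thinning, and leaving out each library, where the remaining one is taken to vary as the other groups do. Members and lists were chosen with earlier results of these data known. Named were all 10 members, all other SOX genes and SOX locus RNAs, up to 3 called genes with the smallest p of each further list, and the 5 genes most like SOX21. FABP7, the stem cell, fibroblast, neuronal and trophoblast markers, PAX7, PAX3, ZIC1, MSX2, ETS1 and CTNNB1 were named after their values were seen. So were the untested neural crest and endoderm genes. SOX9-AS1 was not analysed here, and 1 gene that the naming rule picks is not reported here. Limits for 0 counts are 3 counts and cover counting error only. Per-length levels use GENCODE v29 on GRCh38. CASC15 was matched to its older symbol LINC00340. The tests were run on simulated data first.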

Additional observations from a re-analysis of the deposited data

How the results depend on the processing

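Members called in ASO-L1 against sO-L1 numbered 4 with the replicate block and 0 with no replicate block, and all genes called were 4412 with it and 352 without it (2364 with DESeq2). In ASO-L1 against ASO-Ctr members called were 3 with the block and 0 without it, and all genes called 4120 and 374 (2441 with DESeq2). In sO-L1 against ASO-Ctr members called were 1 and 0 (0 with DESeq2, which gave no adjusted p for 5 members there, and 0 after thinning), and all genes called 330 and 0 (125 with DESeq2, 168 with limma-voom, 516 with the 4 libraries compared). With 1 library left out, members called ranged from 2 to 4, 1 to 3 and 0 to 1 in the 3 comparisons, and all genes called from 1802 to 4702, 2336 to 3693 and 9 to 496. Of 373 recomputed log2 fold changes of members, 330 kept their direction and side of the threshold, 24 lost a call and 19 turned direction, none of the 19 called in its comparison. The cause was not tested. No choice of setting moved the median of all genes by more than 0.0408.

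Those that turned in ASO-L1 against sO-L1 or ASO-Ctr were SOX3 (-0.0218 without sO-L1 replicate 1, to 0.182; -0.00335 without ASO-Ctr replicate 2, to 0.129), SOX8 after thinning (0.0835) and SOX12 after thinning (-0.0157) or with a library left out (-0.0127 to 0.0151). In sO-L1 against ASO-Ctr they were SOX3 (-0.0146 with no replicate block, -0.00293 with the CPM filter, -0.0445 after thinning, -0.127 to 0.0782 with 1 library left out), SOX8 (-0.0121 to 0.0875), SOX11 (-1.76e-05 with the CPM filter, -0.0504 after thinning, -0.0193 to 0.0253) and SOX15 (-0.114 after thinning, -0.112 to 0.105). SOX21 in ASO-L1 kept its call under all alternatives with the block, with log2 fold changes of 1.54 to 2 against sO-L1 and 1.04 to 1.47 against ASO-Ctr. SOX17 had too few counts to be tested at this depth.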
